A study of Mus musculus with 9 samples.

Results

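Carboxylesterases are the serine hydrolases that cut ester, amide and thioester bonds in the endoplasmic reticulum of the liver and in plasma. Their transcripts were followed through 10 genes chosen by symbol, namely Ces1b, Ces1c, Ces1d, Ces1e, Ces1f, Ces1g, Ces2a, Ces2c, Ces2e and Ces3a. Of the 45037 probe sets of the array that are not manufacturer's controls, 10 were annotated to these genes. They covered 7 genes by a symbol of their own, Ces1d with 3 probe sets, and Ces3a by a probe set that it shares with Ces3b. For Ces1b and Ces2c no probe set carried the symbol, so neither gene has a value here. All 10 probe sets passed the filter on dim signals and were above the array median on each of the 8 arrays compared.

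The livers were those of 9 female mice of 11 weeks, 3 in each group, each on 1 array. The strain was MRL +/+, which is prone to autoimmunity. Treated mice received intraperitoneal injections of dichloroacetyl chloride (DCAC) or dichloroacetic anhydride (DCAA) at 0.2 mmol/kg in 100 µl of corn oil, 2 times a week for 6 weeks. Control mice had corn oil alone by the design text, although their labels call them untreated, and livers were collected 24 h after the final dose. Both compounds carry the dichloroacetyl group, attached to chloride in DCAC and to dichloroacetate in DCAA. Values are array signals in arbitrary units, and differences are in log2 units with a standard error (SE) from limma, a linear model that pools the spread over probe sets. Arrays have no read depth, and the number of mice limits the precision.

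In mouse liver the Ces1 enzymes hydrolyse stored triacylglycerol, cholesteryl esters and many ester drugs. Ces1d, known as triacylglycerol hydrolase, supplies lipid for the assembly of very low density lipoprotein. The Ces2 enzymes favour substrates with a small acyl group and also act on glycerides, and many genes of both groups are under the control of nuclear receptors.

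The family was taken up because Ces1d had stood lowest among its members with DCAA in earlier results from the same arrays. The signals of all 3 groups were therefore in view when the members were chosen. Every difference between groups given here for a member is a description of these arrays, and the counts of members past a threshold are not offered as evidence. In a whole liver, fewer cells of a type and less RNA per cell cannot be told apart.

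The library labelled control 2 carried weak liver markers and strong kidney markers and is given apart. On it 12 of 15 hepatocyte markers were below the range of the other 8 arrays and 11 of 11 kidney tubule markers were above it. The hepatocyte markers summed to 53161 on control 2, against 475634 to 664907 on the others. The kidney markers summed to a signal of 179811 on control 2 and to 1731 to 2635 on the others. The main comparisons use control 1 and control 3 as the control group, which leaves 2 controls.

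The genes lie in 2 runs on chromosome 8. In the RefSeq annotation of GRCm38.p6, Ces1b, Ces1c, Ces1d, Ces1e, Ces1f and Ces1g follow one another with no other protein-coding gene between them. Ces2a, Ces2c, Ces2e and Ces3a lie in the second run, interrupted by no protein-coding gene from outside the family. Between Ces5a, which ends the first run and is not among the members, and Ces2a lie 68 protein-coding genes. RefSeq promoters, taken from 250 bases before to 50 bases after the start of transcription, were at hand for 7 of the 10 genes. They are printed for the members with both a probe set of their own and a promoter at hand, to show what neighbours with unlike values share. That of Ces1b is printed to be set beside that of Ces1c. Over 273 aligned bases the promoters of Ces1b and Ces1c were 93.0% identical, and those of Ces2a and Ces2e were 74.7% identical over 261.

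The longest run of letters shared by the promoters of Ces1c, Ces1e and Ces1g was TTATGTAA, which is like the D-box bound by PAR bZIP factors and by NFIL3. The 3 promoters were chosen after they had been read. Searched on both strands, the run was found in Ces1a, which is not among the members, in Ces1b, Ces1c, Ces1e and Ces1g, and in all in 308 of 32851 RefSeq promoters of the same length, or 0.938%. Capitals mark it in the sequences of Ces1b (chr8:93079891-93080190), Ces1c (chr8:93131234-93131533), Ces1e (chr8:93229570-93229869) and Ces1g (chr8:93337160-93337459), all on the minus strand of GRCm38.p6 and written 5′ to 3′ as transcribed.
Ces1b: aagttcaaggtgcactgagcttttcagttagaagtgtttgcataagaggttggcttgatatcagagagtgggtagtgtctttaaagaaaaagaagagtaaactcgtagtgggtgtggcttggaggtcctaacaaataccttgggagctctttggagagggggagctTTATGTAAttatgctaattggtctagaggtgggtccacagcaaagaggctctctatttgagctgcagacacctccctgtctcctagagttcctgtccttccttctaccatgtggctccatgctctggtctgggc
Ces1c: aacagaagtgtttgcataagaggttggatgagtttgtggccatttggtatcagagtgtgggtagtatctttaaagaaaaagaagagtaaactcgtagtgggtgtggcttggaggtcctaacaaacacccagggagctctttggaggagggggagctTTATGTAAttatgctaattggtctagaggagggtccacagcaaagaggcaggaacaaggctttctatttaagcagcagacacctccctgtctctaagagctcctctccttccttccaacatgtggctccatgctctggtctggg
Ces1e: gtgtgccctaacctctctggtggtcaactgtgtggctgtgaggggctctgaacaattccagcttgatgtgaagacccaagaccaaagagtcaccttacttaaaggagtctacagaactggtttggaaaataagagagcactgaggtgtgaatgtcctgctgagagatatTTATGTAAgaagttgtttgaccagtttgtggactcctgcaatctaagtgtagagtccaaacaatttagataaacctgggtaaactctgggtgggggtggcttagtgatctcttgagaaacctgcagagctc
Ces1g: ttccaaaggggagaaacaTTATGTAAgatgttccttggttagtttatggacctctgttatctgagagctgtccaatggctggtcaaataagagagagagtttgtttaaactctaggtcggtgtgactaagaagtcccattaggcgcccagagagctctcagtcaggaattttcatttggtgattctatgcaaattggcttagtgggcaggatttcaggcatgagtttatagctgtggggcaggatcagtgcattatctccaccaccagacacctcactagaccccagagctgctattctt

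The match begins 84 bases before the start of transcription in Ces1b, counted from the start used here of the pair that RefSeq lists, 94 in Ces1c, 81 in Ces1e and 232 in Ces1g. The distances in Ces1c and Ces1e are similar. Their deposited signals with DCAA lay on opposite sides of the controls, as given below. With quantile normalization both differences were below 0, at -0.071 for Ces1c and -0.55 for Ces1e. Whether the letters bear on the signals was not tested.

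The longest run shared by the promoters of Ces2a, Ces2e and Ces2f, a neighbour that is not among the members, was AACTTTGCCCC, chosen in the same way. On the opposite strand it resembles part of a direct repeat of the kind bound by HNF4A. Searched on both strands, it was found in 6 of 32851 promoters, these 3 among them, or 0.0183%. Capitals mark it in Ces2a (chr8:104733753-104734052) and Ces2e (chr8:104926010-104926309), both on the plus strand, where it begins 71 and 81 bases before the start.
Ces2a: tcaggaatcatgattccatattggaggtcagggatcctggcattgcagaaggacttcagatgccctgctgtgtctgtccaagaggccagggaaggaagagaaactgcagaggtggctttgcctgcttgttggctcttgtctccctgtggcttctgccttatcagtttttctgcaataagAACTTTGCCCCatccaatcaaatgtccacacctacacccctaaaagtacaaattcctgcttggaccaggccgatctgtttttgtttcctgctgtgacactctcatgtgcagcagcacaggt
Ces2e: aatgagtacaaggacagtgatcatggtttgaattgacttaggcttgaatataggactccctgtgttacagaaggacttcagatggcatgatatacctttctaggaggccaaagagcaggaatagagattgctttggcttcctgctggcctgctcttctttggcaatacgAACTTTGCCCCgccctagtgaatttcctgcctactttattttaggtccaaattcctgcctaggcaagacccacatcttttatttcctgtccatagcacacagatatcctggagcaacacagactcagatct

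These matches describe letters in a window of 300 bases and are neither shown to be bound nor tied to the differences in signal. None of the promoters printed holds both runs.

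Ces1d was the member that differed most from the controls. Its brightest probe set, 1435370_a_at, read 12607 and 13856 on control 1 and control 3. On DCAC 1, DCAC 2 and DCAC 3 it read 9067, 11850 and 7803, and on DCAA 1, DCAA 2 and DCAA 3 it read 7579, 6308 and 5065. All 6 treated mice lay below both controls, and the 3 DCAA mice lay below the 3 DCAC mice, by a narrow margin between DCAC 3 and DCAA 1. The control mean was 13232 ± 883 (SD, n = 2). The DCAC mean was 9573 ± 2071 and the DCAA mean 6317 ± 1257 (SD, n = 3 each). The difference from control was -0.49 (SE 0.20, 95% interval -0.92 to -0.050) with DCAC and -1.08 (SE 0.20, interval -1.52 to -0.65) with DCAA, a 2.12-fold lower level.

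A second probe set of Ces1d, 1449081_at, gave a like picture. It read 12738 and 13186 in the controls, 7689, 10279 and 7268 with DCAC, and 8281, 6021 and 6472 with DCAA. Both treated groups again lay wholly below the controls, but they overlapped each other, since DCAA 1 was above DCAC 1 and DCAC 3. The differences from control were -0.64 (SE 0.18) with DCAC and -0.92 (SE 0.18) with DCAA.

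The third probe set of Ces1d, 1435371_x_at, did not order the mice in the same way. It read 9004 and 8284 in the controls, 8289, 3188 and 1461 with DCAC, and 1576, 3071 and 2820 with DCAA. DCAC 1 was within the range of the controls while DCAC 3 was the lowest array of all, so that the DCAC mean was 4313 ± 3550 (SD, n = 3). Its differences were -1.35 (SE 0.52) with DCAC and -1.85 (SE 0.52) with DCAA. Its suffix, _x_at, is the manufacturer's mark for a probe set whose probes may also bind other transcripts. Over the 8 arrays its log2 signal correlated with that of the brightest probe set at r = 0.61, against r = 0.93 for the second, a description over arrays that include all 3 groups.

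**Figure D1:**
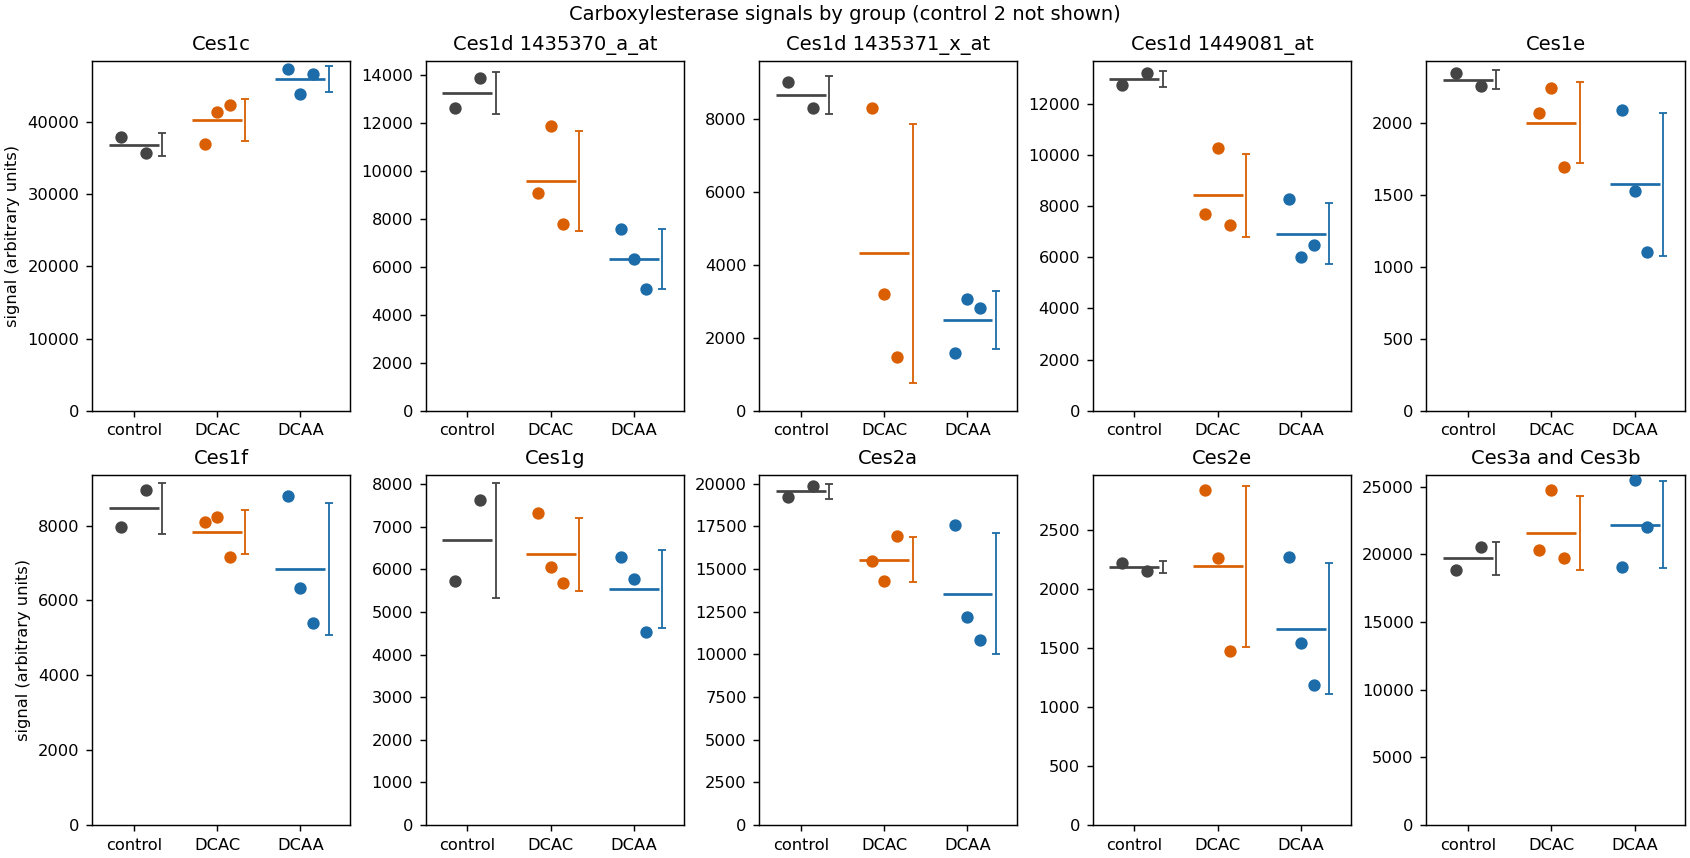
Signal in arbitrary units (y axis from 0) of the 10 carboxylesterase probe sets on each array, by group (x axis), with the mean as a line and the SD as a bar at its right; control 2 is not drawn. Ces1d is lowest with DCAA by its brightest probe set (5065 to 7579, against 12607 and 13856 in controls), Ces1c is highest with DCAA (43825 to 47252), and the groups of Ces1f, Ces1g, Ces2e and Ces3a with Ces3b overlap.

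Ces1c, which encodes the carboxylesterase secreted into mouse plasma, lay on the other side. It read 37909 and 35649 in the controls, 36937, 41286 and 42338 with DCAC, and 47252, 43825 and 46625 with DCAA. All 3 DCAA mice were above every control and every DCAC mouse, while DCAC 1 fell between the controls. The difference from control was 0.13 (SE 0.13, interval -0.17 to 0.42) with DCAC and 0.32 (SE 0.13, interval 0.026 to 0.61) with DCAA. Quantile normalization, which forces the arrays to 1 distribution, turned both, to -0.085 and -0.071. Scaling the arrays to a common median gave 0.20 with DCAA. Of 15 hepatocyte markers measured, 16 being listed, 10 were brighter on every DCAA array than on either control. Tat, Cps1, Hnf4a, Ass1 and Pck1 overlapped. Over all probe sets tested the share brighter on every DCAA array was 16.1%. The 15 summed to 482359 and 496654 in the controls, to 475634, 562666 and 630635 on DCAC 1, DCAC 2 and DCAC 3, and to 608792 to 664907 with DCAA, and none was below the array median on all 8 arrays. DCAC 3, the DCAC array nearest to DCAA in this sum, also shared its high 3'/5' ratio, given below. Their part in the level of Ces1c was not tested.

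Ces1e encodes egasyn, which holds beta-glucuronidase in the endoplasmic reticulum. Its signal was 2347 and 2256 in the controls, 2070, 2246 and 1691 with DCAC, and 2093, 1525 and 1102 with DCAA. No treated mouse reached the lower control, but DCAC 2 came within a few units of it, and the treated groups overlapped. The difference was -0.21 (SE 0.24, interval -0.72 to 0.30) with DCAC and -0.60 (SE 0.24, interval -1.11 to -0.084) with DCAA.

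Ces1f, a second triacylglycerol hydrolase of the liver, read 7973 and 8942 in the controls, 8089, 8235 and 7159 with DCAC, and 8800, 6331 and 5388 with DCAA. DCAA 1 lay between the controls, whereas DCAA 2 and DCAA 3 were the lowest arrays of the 8. The difference was -0.11 (SE 0.19) with DCAC and -0.33 (SE 0.19) with DCAA, each with an interval that included 0. The only probe set of Ces1f, 1424266_s_at, has the same suffix as the one shared by Ces3a and Ces3b. Binding to other transcripts was not tested.

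Ces1g, a lipid hydrolase of hepatocytes, read 5723 and 7637 in the controls, 7312, 6051 and 5689 with DCAC, and 6297, 5774 and 4526 with DCAA. The groups overlapped, and the differences were -0.066 (SE 0.19) with DCAC and -0.27 (SE 0.19) with DCAA. For DCAC the sign turned without control 3 (0.14) and without DCAC 3 (0.0087), among other settings.

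Ces2a, of the group that cuts esters with a small acyl part, read 19235 and 19866 in the controls. With DCAC it read 15440, 14304 and 16907, and with DCAA 17579, 12202 and 10866. Each treated mouse was below both controls, and DCAA 1 was above every DCAC mouse, so the order of the compounds was not the same in every mouse. Means were 19551 ± 446 (SD, n = 2), 15551 ± 1305 (SD, n = 3) and 13549 ± 3554 (SD, n = 3). The difference from control was -0.33 (SE 0.19, interval -0.74 to 0.075) with DCAC and -0.56 (SE 0.19, interval -0.97 to -0.15) with DCAA.

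Ces2e, a microsomal esterase of the same group, read 2222 and 2149 in the controls, 2839, 2263 and 1473 with DCAC, and 2269, 1539 and 1185 with DCAA. DCAC 1 and DCAC 2 were above both controls and DCAC 3 was below them, and in the same way DCAA 1 was above and the other DCAA mice below. The differences were -0.047 (SE 0.29) and -0.44 (SE 0.29), both with intervals that included 0.

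The probe set shared by Ces3a and Ces3b, hydrolases of the liver endoplasmic reticulum that it cannot tell apart, read 18861 and 20568 in the controls. It read 20301, 24738 and 19736 with DCAC and 19060, 25502 and 22016 with DCAA, with overlap between all groups. The differences were 0.13 (SE 0.16) with DCAC and 0.16 (SE 0.16) with DCAA. Quantile normalization turned both, to -0.041 and -0.064.

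**Figure D2:**
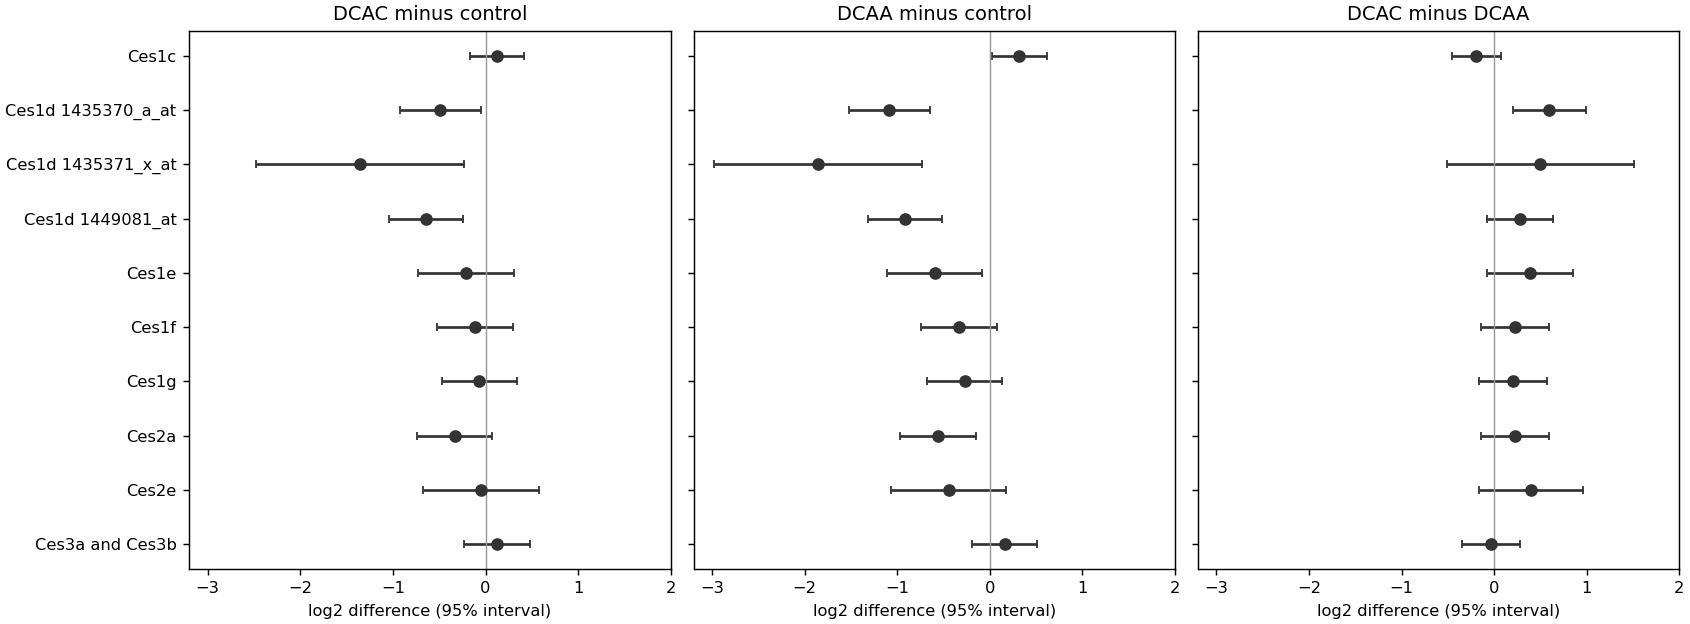
Log2 difference (x axis) with its 95% interval from limma for each carboxylesterase probe set (y axis), for DCAC minus control, DCAA minus control and DCAC minus DCAA, on 8 arrays. The 3 probe sets of Ces1d lie lowest in the first and second panels, at -1.08, -1.85 and -0.92 with DCAA, and Ces1c lies above 0 at 0.32.

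Set against corn oil, DCAC gave the 10 member probe sets their lowest differences in Ces1d, Ces2a and Ces1e, and the question is which transcripts an acyl chloride alters. Here limma with Benjamini-Hochberg adjustment over 24531 probe sets called 0 of 10 at an adjusted p under 0.05, where it called 0.0326% of all probe sets. At an unadjusted p under 0.05 there were 3 of 10, all of Ces1d, against 5.02% of all. Wholly below the controls were 4 of 10, against 12.5% of all, namely Ces2a, Ces1e and Ces1d by its brightest and second probe sets. Wholly above were 0 of 10, against 11.2%. The median difference was -0.16 over the 10 and -0.029 over all, with 8 of 10 below 0 against 53.8%. Of these 10, 3 are probe sets of Ces1d. With 1 probe set per gene the median was -0.11 over 7, with 6 below 0, against 50.2% of all.

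For the anhydride the question was the same, and among the 10 member probe sets the differences of Ces1d, Ces1e and Ces2a were again the lowest, with that of Ces1c the highest. In this comparison limma called 0 of 10, against 0.0815% of all probe sets, and the smallest adjusted p of a member was 0.0909, that of Ces1d. The number at an unadjusted p under 0.05 was 6 of 10, against 12.6% of all, which were the 3 probe sets of Ces1d, Ces1e and Ces2a on the low side and Ces1c on the high side. Wholly below the controls were 5 of 10, against 15.6%, and wholly above was 1, Ces1c, against 16.1%. The median difference was -0.50 over the 10 and -0.0081 over all, with 8 of 10 below 0 against 50.8%. The 10 hold 3 probe sets of Ces1d, the gene whose low level with DCAA led to the choice of the family. With 1 probe set per gene the median was -0.44 over 7, with 6 below 0, against 50.0% of all. Both comparisons share their 2 controls. Without DCAA 1 limma called 2 of 10, both of them probe sets of Ces1d, the brightest at -1.23 and the second at -1.05, but it also called more of all probe sets, 87 of 23906 or 0.364%. The median over the 10 was then -0.73. Without DCAA 3 it was -0.30, with Ces1e at -0.37, Ces1f at -0.18, Ces1g at -0.13 and Ces2e at -0.23.

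Set against each other at the same molar dose, the chloride and the anhydride gave no member past the threshold (limma, 0 of 10, against 0.00408% of all). At an unadjusted p under 0.05 there was 1 of 10, against 9.28%. The level of Ces1d was 0.60 higher with DCAC than with DCAA by its brightest probe set (interval 0.21 to 0.99) and 0.28 higher by the second (interval -0.078 to 0.63). It was the 1 probe set with all DCAC mice above all DCAA mice, against 6.32% of all, and Ces1c, at -0.19 (interval -0.46 to 0.069), was the 1 with all DCAC mice below, against 7.63%. Ces1e stood at 0.39 (interval -0.073 to 0.85), Ces2e at 0.40 (interval -0.16 to 0.95) and Ces2a at 0.23 (interval -0.14 to 0.59). Of the 10 probe sets 2 were below 0, against 51.8%, and their median was 0.25, against -0.015 over all. With 1 probe set per gene the median was 0.23 over 7, with 1 below 0. These intervals leave room for differences of either sign for most members, so equal effects of the compounds are not shown.

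A measure of RNA and labelling quality differed between the same arrays. This measure came from 1 transcript, and no other of its kind was used. Control probe sets for pyruvate carboxylase, a biotin-carrying enzyme of the cell's own, lie at both ends of its transcript, and their 3'/5' ratio was 3.32 to 3.93 on control 1 and control 3 and 2.85 and 3.99 on DCAC 1 and DCAC 2. It was 12.8 on DCAC 3 and 6.43, 8.38 and 10.9 on DCAA 1, DCAA 2 and DCAA 3. Among the DCAC arrays DCAC 3 was the lowest in 8 of 10 member probe sets, the exceptions being Ces1c and Ces2a. Among the DCAA arrays DCAA 1, with the lowest ratio, was the highest in 8 of 10, and DCAA 3, with the highest ratio, was the lowest in 6 of 10. The 10 include several probe sets of Ces1d, and the same counts over all probe sets were not taken. Whether these orders are particular to the family was not tested. DCAA 3 also stood apart over all probe sets, with a median Spearman correlation with the other arrays of 0.861, against 0.898 to 0.904 for the other 7 livers.

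With arrays of high and low ratio fitted as a block, the median DCAA difference over the 10 was -0.095 in place of -0.50. Ces1d then stood at -0.67 by its brightest probe set, -0.63 by the second and -0.038 by the _x_at probe set, Ces1e at -0.25, Ces1f at -0.15 and Ces1g at -0.045. Ces2a stood at -0.75, lower than without the block, and Ces2e turned to 0.34. Ces1c stood at 0.20 in place of 0.32, and the Ces3a and Ces3b probe set at 0.35 in place of 0.16. That correction comes from DCAC 3 alone against DCAC 1 and DCAC 2, because no control had a high ratio and no DCAA array a low one. DCAA and the ratio class cannot be told apart against the controls by any other array. Within the arrays of low ratio, Ces1d read 9067 and 11850 on DCAC 1 and DCAC 2 by its brightest probe set and 7689 and 10279 by the second, all below both controls. By the _x_at probe set it read 8289 on DCAC 1, inside the range of the controls, and 3188 on DCAC 2. Ces2a read 15440 and 14304 and Ces1e 2070 and 2246, also below both controls, Ces1e on DCAC 2 only by a few units. Ces2e read 2839 and 2263, above both controls. Ces1c, Ces1f, Ces1g and the Ces3a and Ces3b probe set overlapped the controls. The share of all probe sets so placed was not taken, and what sets these orders was not tested.

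**Figure D3:**
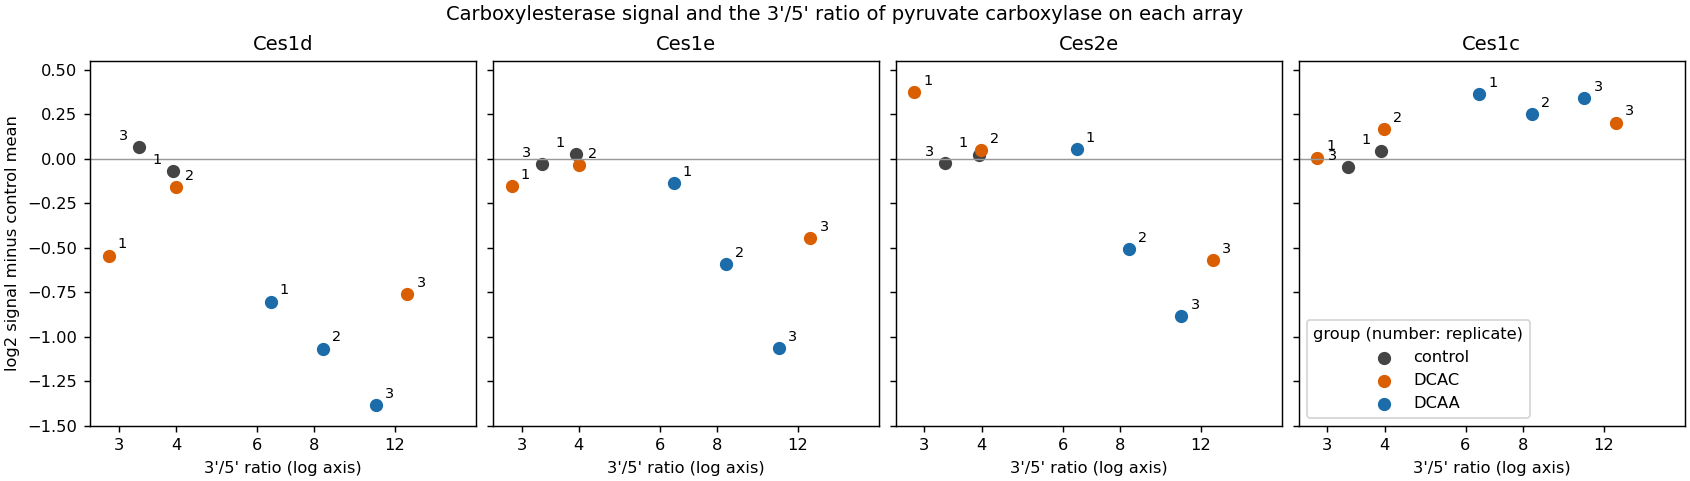
Log2 signal minus the mean of control 1 and control 3 (y axis) against the 3'/5' ratio of the pyruvate carboxylase control probe sets (x axis, log scale) for Ces1d (brightest probe set), Ces1e, Ces2e and Ces1c, 1 point per array, coloured by group and numbered by replicate. The arrays with ratios of 6.43 to 12.8 are the 3 DCAA arrays and DCAC 3. Ces1d, Ces1e and Ces2e are lowest on DCAA 3. Ces1c is above the control mean on every treated array, including DCAC 1 (0.0069) and DCAC 2 (0.17), whose ratios are low.

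Markers of other cells were also set beside the family. Neutrophil markers, 11 of 11 measured, summed to 4626 and 4698 in the controls, 35896 to 43071 with DCAC and 15491 to 52243 with DCAA, with 2 of 11 below the array median on all 8 arrays. Most of that sum was Lcn2, which hepatocytes also make in the acute phase, at 2465 and 2875 in the controls, 32912 to 39961 with DCAC and 13245 to 49003 with DCAA. The other 10 neutrophil markers summed to 1822 and 2161 in the controls, 2983 to 3111 with DCAC and 2246 to 4523 with DCAA. Adipocyte markers, 7 of 9 measured, were dim, with sums of 1405 and 1521 in controls, 940 to 1750 with DCAC and 1468 to 2392 with DCAA. Of these, Lep was below the array median on all 8 arrays. T and NK cell markers, 9 of 10 measured and 2 of them below the median on all 8 arrays, summed to 1839 and 2858 in the controls, above the 1194 to 1333 with DCAC and 1083 to 1448 with DCAA. Kupffer cell and macrophage markers, 11 of 11 measured, summed to 10494 on control 1 and 37105 on control 3, so the controls differed widely. Their sums were 10784 to 17094 with DCAC and 13938 to 15601 with DCAA. Stellate cell and fibroblast markers, 10 of 10 measured, summed to 8677 and 9723 in the controls and 8290 to 9287 with DCAC. With DCAA they summed to 7947, 8957 and, on DCAA 3, 15785. The part of these markers in the carboxylesterase levels was not tested.

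On control 2 the carboxylesterase signals ran from 78.3% of the mean of the other controls down to at most 0.163%. Ces1d read 10357, 5669 and 8963 by its 3 probe sets, in the order brightest, _x_at and second, which is 78.3%, 65.6% and 69.2% of the mean of the other controls. All 3 values lay within the range of the other 8 arrays. Ces1e, at 1113, stood at 48.4% of that mean, and Ces1f, at 1123, at 13.3%. Ces2e read 180.5, or 8.26%, and Ces1g 164, or 2.45%, both below the median signal of that array, 184. The Ces3a and Ces3b probe set read 124 and Ces2a 83.8, or 0.629% and 0.429% of the other controls, and both were also below that median. Ces1c, at 56.5, was under the floor of that array, the 25th percentile of its signals at 59.8, and so has only a bound, at most 0.163% of the other controls. Neighbouring genes thus differed widely on this array, since Ces1c and Ces1d lie side by side.

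**Figure D4:**
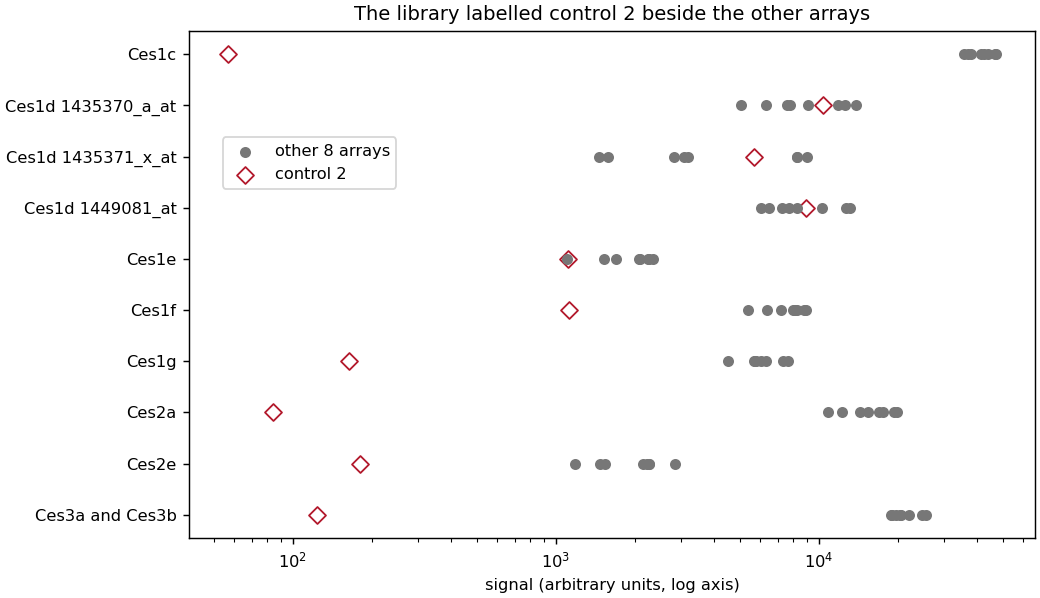
Signal (x axis, log scale) of each carboxylesterase probe set (y axis) on control 2, as an open diamond, and on the other 8 arrays, as grey points. The 3 Ces1d probe sets lie within the range of the other arrays, Ces1e at its lower end (1113, beside 1102 on DCAA 3), and Ces1c is furthest below it (56.5, under that array's floor of 59.8, against 35649 to 47252).

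With control 2 included, the DCAA difference was above 0 for 6 of 10 probe sets in place of 2. Ces1c, with control 2 set to its floor, then stood at 3.41 (SE 2.02), Ces2a at 2.06 (SE 1.72) and Ces1g at 1.51 (SE 1.18), while Ces1d stayed below 0, at -0.97 (SE 0.24), -1.65 and -0.74 by its probe sets in that order. With DCAC, Ces1d stood at -0.37, -1.15 and -0.46 on the 9 arrays. The limma calls were 0 of 10 in all 3 comparisons with 9 arrays as well.

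Levels varied together among several members. Over the 8 arrays, which span the 3 groups, the log2 signals of Ces1e and Ces1f correlated at r = 0.95, those of Ces1e and Ces1d at 0.90 and those of Ces1e and Ces2e at 0.89. Ces1c ran against Ces1d at r = -0.80, and the Ces3a and Ces3b probe set against Ces2a at -0.71. Among 12292 other genes, the 5 whose brightest probe set was most like that of Ces1d were Rnf6, a ubiquitin ligase, at r = 0.98, Proser1 at 0.97, Csnk1g3, a casein kinase, at 0.97, Nae1, a subunit of the enzyme that activates NEDD8, at 0.97, and Snx17, a sorting nexin, at 0.96. Their DCAA differences were -0.72, -0.93, -0.55, -0.92 and -0.87. The arrays share their groups and their 3'/5' ratios, so the correlations are a description and have no p-value.

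Among the remaining carboxylesterase genes 6 had probe sets, 9 in all, of which 6 passed the filter, and limma called 0 of them in any comparison. Ces2g, the brightest of them, read 1886 and 1833 in the controls, 1477 to 2124 with DCAC and 1654 to 2036 with DCAA, with differences of -0.065 (SE 0.18) and -0.057 (SE 0.18). Ces1h stood at -0.44 (SE 0.33) with DCAC and -0.17 with DCAA. Ces4a read 118 to 137 in the controls, 167 to 212 with DCAC and 165 to 278 with DCAA, and stood at 0.55 (SE 0.41) and 0.81 (SE 0.41). Ces2f, at 0.20 and 0.30, was as dim and varied more, with an SE of 0.58. For Ces5a 2 probe sets passed, and it stood at 0.19 and 1.09 (SE 1.01) by the brighter, which ran from 94.3 to 1006 within the 8 arrays, and at 0.067 and 0.90 (SE 0.36) by the other. Ces2b did not pass the filter.

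Other genes of ester and lipid hydrolysis, from a list that includes lipases, paraoxonases and epoxide hydrolases, gave 0 calls by limma among 29 measured of 33 in each comparison. At an unadjusted p under 0.05 there were 3 with DCAC, 3 with DCAA and 2 between the compounds. Their median difference was 0.081 with DCAC and 0.024 with DCAA. The differences ran from -1.53 (Pnpla3) to 0.56 (Nceh1) with DCAC and from -1.24 (Pnpla3) to 0.61 (Cel) with DCAA. Genes of lipid droplets and of lipoprotein assembly, 20 of 21 measured, had 0 calls, medians of 0.12 and 0.17, and 0, 5 and 1 at an unadjusted p under 0.05. With DCAA they ran from -0.76 (Plin5) to 1.38 (Fitm1, SE 0.72). Regulators known to act on carboxylesterase genes, 16 of 18 measured, had 0 calls, medians of -0.029 and 0.011, and 2, 4 and 2 at that level. With DCAA 8 were below 0 and 8 above, from -1.003 for Srebf1 (SE 0.18) to 1.32 for Bcl6 (SE 0.35). Between the compounds they ran from -1.82 for Bcl6 to 0.45 for Nr1i3. The smallest adjusted p of the list with DCAA was 0.085 (limma), that of Srebf1. The medians near 0 thus do not show unchanged regulators. Over all probe sets the shares at an unadjusted p under 0.05 were 5.02% with DCAC, 12.6% with DCAA and 9.28% between the compounds.

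**Figure D5:**
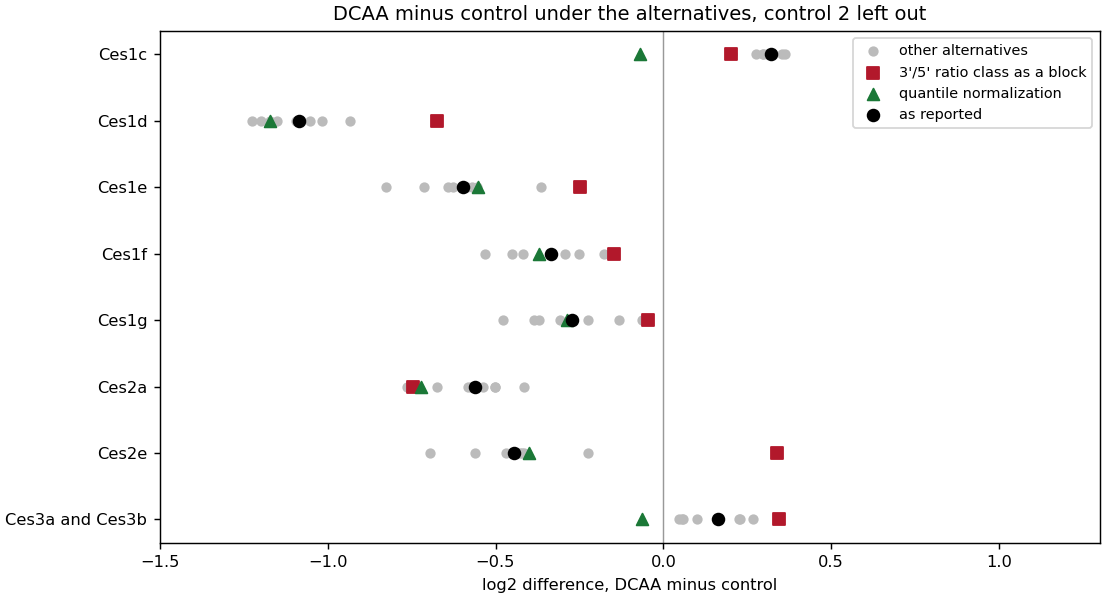
Log2 difference of DCAA minus control (x axis) for each carboxylesterase (y axis, brightest probe set) as reported and under the alternatives without control 2, of which 8 leave out a further array. Ces1d ran from -1.23 (without DCAA 1) to -0.67 and Ces2a from -0.76 (without DCAA 1) to -0.42 (without DCAA 3), Ces2e crossed 0 in the fit blocked on ratio class (0.34), and Ces1c and the Ces3a and Ces3b probe set crossed it with quantile normalization (-0.071 and -0.064).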

How the data were processed

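RNA of 1 liver per mouse went onto 1 Affymetrix array. The authors' deposited values are intensity signals, linear in scale, from GCOS (per the submitters' processing notes, with no version). By their values, arrays had been scaled to a trimmed mean of 500.0, with 2% of probe sets trimmed at each end. No detection calls were used.

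Here 64 control probe sets were left out of the tests. Signals under an array's 25th percentile were raised to it before log2 was taken, and a probe set was tested if at least 3 arrays had it above their median. The test was limma 3.58.1 (R 4.3.3), with all groups in 1 model, no covariate, a trended prior and Benjamini-Hochberg adjustment over all probe sets tested. The script was tested on simulated data. Symbols are from the array's annotation, and promoters and gene order from RefSeq (GRCm38.p6).

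The members, gene lists, tests and alternatives were chosen with earlier results of these data known. All members are named, the brightest probe set stands for a gene, and 5 further genes are named for likeness to Ces1d. Alternatives were control 2 included, other scalings, floors, filters and variance settings, blocks, and single arrays left out.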

Additional observations from a re-analysis of the deposited data

How the results depend on the processing

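The count of 0 carboxylesterase probe sets called held under each of the alternatives run with DCAC against control and with DCAC against DCAA. With DCAA against control it became 2 with array weights, and ranged from 0 to 2 when single arrays were left out (2 without DCAA 1). Those fits also called more of all probe sets, 0.575% and 0.364%, against 0.0815%. With the replicate block the counts were 0 in all 3 comparisons, with and without control 2, and Ces1d stood at -1.17 with DCAA, so the block changed no call. Same-numbered arrays had deviations from their group means that correlated between -0.041 and 0.027, and the samples share only a number. For the brightest probe sets, over 21 alternatives without control 2, of which 8 leave out a further array, the DCAA difference ran from -1.23 (without DCAA 1) to -0.67 for Ces1d, from -0.83 (without DCAA 1) to -0.25 for Ces1e, from -0.53 to -0.15 for Ces1f, from -0.48 to -0.045 for Ces1g and from -0.76 to -0.42 for Ces2a, with no change of sign. With DCAC Ces1d ran from -0.65 to -0.35 and Ces2a from -0.55 to -0.26, while Ces1g (-0.27 to 0.14) and Ces2e (-0.26 to 0.21) took both signs, each in 4 of 21. A common median shifted the median of all probe sets to -0.12 for DCAA against control and to 0.17 for DCAC against DCAA. The 2 controls limit every difference, and no other array separates DCAA from the high 3'/5' ratio; the cause of the changes under that block and under array weights was not tested.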
